A study of Mus musculus with 2 samples.

Results

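The genes described here encode 10 surface proteins of immune cells: the sialic acid binding receptors Siglec1, Siglece, Siglecf, Siglecg, Siglech and Cd33, the receptor Sirpa with its ligand Cd47, and the immunoglobulin-type inhibitory receptors Pirb and Lilrb4. They were taken by gene name or by the current symbol of the RefSeq transcript that the array design gives for a probe. The array names Siglecf as Siglec5 and Pirb as Lilrb3, and the current symbol of its Lilrb4 transcript is Lilrb4a. All 10 were found among the 27240 genes with a named probe, and all 10 were among the 15681 genes that were measured, meaning that at least 1 of the RNA pools gave a signal well above background on both arrays. Each of the 10 was above background in both pools.

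The study compared macrophage-like cells of the mouse gut wall with blood monocytes. The colon pool held cells that carry high CX3CR1 together with CD11b and CD11c, from large-intestinal lamina propria of the CX3CR1gfp/+ strain, where a green fluorescent protein reporter replaces a copy of the Cx3cr1 gene. The blood pool held Ly6c+ CD11b+ monocytes of C57BL/6J mice. The labels give no age and no treatment for either, and state n = 10 (colon) and n = 6 (blood) without saying what n counts. Tissue, cell type and reporter genotype changed together between the pools and cannot be told apart. Both pools were hybridised against each other on 2 two-colour arrays with 60-base probes. The first array carried the colon pool in Cy5 and the blood pool in Cy3, and the second had the dyes swapped. The labels describe the pools of both arrays alike but do not say whether the same RNA extracts were used on both. Each group was taken as 1 pooled sample, so the SDs given are over the 2 arrays (n = 2), they cover technical error alone if the extracts were shared, and no p-value is given.

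Siglecs are cell surface lectins that bind sialic acid, the sugar that caps many glycans of the body's own cells. Many of them, like SIRP-alpha, PIR-B and LILRB4, carry tyrosine motifs called ITIMs in their tails. Once phosphorylated by Src family kinases, an ITIM recruits the phosphatases encoded by Ptpn6, Ptpn11 and Inpp5d, which dampen activating signals from ITAM-bearing partners such as Tyrobp and Fcer1g. CD47 on other cells engages SIRP-alpha on phagocytes and restrains their uptake. PIR-B binds MHC class I. Siglec1 and Siglec-H have no ITIM of their own: the first is an adhesion receptor of tissue macrophages, and the second, a marker of plasmacytoid dendritic cells, pairs with the adaptor encoded by Tyrobp.

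The 10 genes were read by 16 probes, 6 genes by 2 probes and 4 genes by 1, and for several of them the choice of probe set the result. The stretches of 30 bases printed here are those on which that choice turns, each 5′ to 3′ from the array design, with positions on mm9. Siglech is the clearest case. The last 30 bases of its brighter probe (chr7:63029188-63029247, plus strand) hold a tandem AAAG repeat, in capitals, and the same repeat, also in capitals, lies in the probes for Rgs7bp and Chat. The other Siglech probe (chr7:63028926-63028985) lies just upstream and has no such repeat; its first 30 bases are shown.
Siglech, repeat-bearing probe: tctgtctcAAAGAAAGAAAGAAAGAAAGAA
Siglech, other probe: acaacagttaaattcccttgcagagacatc
Rgs7bp probe: AGAAAGAAAGAAAGAAAGAAAGAAAGAAAG
Chat probe: gctattcAGAAAGAAAGAAAGAAAGAAAGA

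A run of 20 bases of the repeat-bearing Siglech probe, searched on both strands, occurred in the RefSeq promoter windows (GRCm38.p6, 300 bases each) of 7 other genes among 27025, and in the array's probes for 3 other genes. The third of these probes, for Ulk3, holds the opposite strand. The remaining 15 probes of the receptor genes had no such match. Of all 39429 probes on the array, 0.872% matched the windows of as many genes or more, and 3.25% matched any. With a shorter run of 16 bases the repeat-bearing Siglech probe matched the windows of 37 other genes and the Pirb probe those of 17. A match is a description of the letters, and whether other transcripts bound these probes was not tested.

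The next stretches are from the genes that passed the size rule, with both probes where a gene has 2. Those of Siglec1 lie on chromosome 2, minus strand: the used probe, the brighter one, at chr2:130895093-130895152, starting at base 6190 of its transcript, and the other at chr2:130909693-130909752, starting at base 1417. The Cd33 probe is at chr7:50783849-50783908, minus strand. The used Lilrb4 probe is at chr10:51216160-51216219, plus strand, and the other spans an intron between chr10:51212976-51213891. Its neighbour Lilr4b, which the array calls Gp49a, is read at chr10:51201615-51201674. The capitals in the Pirb probe (chr7:3664137-3664196, minus strand) mark AATAAA, the common polyadenylation signal, which 2 of the 16 probes and 12.6% of all probes hold. Whether a probe lies in coding sequence or in an untranslated region is not given in the sources used here.
Siglec1, used probe: ttttctccattccccaagtgttgcctttga
Siglec1, other probe: aggaacatccttcccggggatccagtcaca
Cd33: cttgcccatgagtaagtacatgtatgaagg
Lilrb4, used probe: gccatcatgaatacctcatgtgttatcaga
Lilrb4, other probe: aaaccaaggaccagtcctctacacccactg
Lilr4b: tttagaaatgaaccacaggtgtggtcaaaa
Pirb: tcagagtttggaAATAAAgctagagatttc

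Cd33, Siglec1 and Lilrb4 were higher in the colon pool, by 3.45-fold, 2.7-fold and 2.69-fold, and Pirb was lower, by 2.29-fold. The other 6 genes did not pass the size rule, under which both arrays have to show a change of 2-fold or more one way, with the brighter pool above background. So 3 of the 10 (30%) were called higher and 1 (10%) lower. Over all measured genes 14.2% were called higher, 4.46% lower and 18.6% either way, and of all calls 76.1% were higher (60.4% with the log ratios of the scanner software). The median log2 ratio of colon over blood was 0.42 for the 10 genes and 0.06 for all measured genes. That overall median was -0.12 by the scanner software's ratios, and -0.28 when arrays were centred on their median in place of loess. Under median centring none of the 4 genes kept its call. The arrays then disagreed: the median gap between the arrays over all genes was 1.5 in place of 0.15. The mean ratios over both dye orientations kept their sign there, at 1.14 for Cd33, 0.92 for Siglec1, 0.60 for Lilrb4 and -2.00 for Pirb. Those of Siglec1 and Lilrb4 were themselves below 2-fold.

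**Figure D1:**
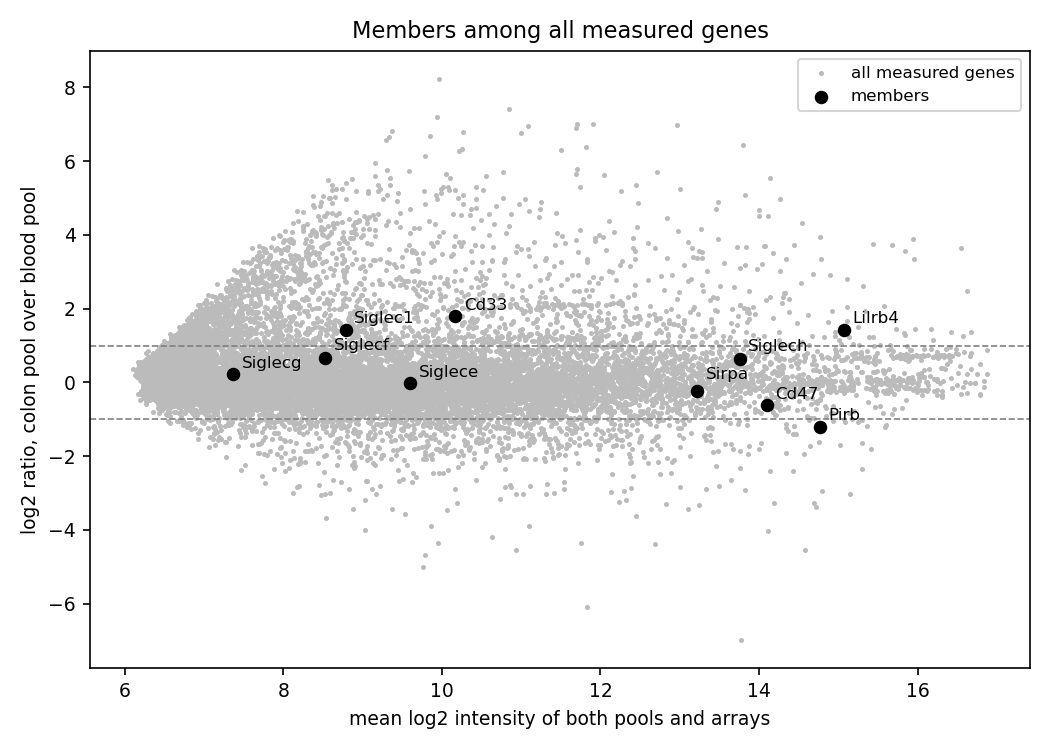
Log2 ratio, colon pool over blood pool (mean of 2 arrays) against mean log2 intensity, for all 15681 measured genes (grey) and the 10 receptor genes (black), with dashed lines at 2-fold. Cd33, Siglec1 and Lilrb4 lie above the upper line, Pirb lies below the lower line, and the other 6 genes lie between the lines.

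Most markers of the labelled cells differed between the pools. Of 12 resident macrophage markers 9 were higher in the colon pool, and all 9 measured classical monocyte markers were lower there. The other 3 macrophage markers were not called, the lowest being Fcgr1 at a log2 ratio of -0.62 ± 0.10. Itgax, which encodes CD11c, was 10.2-fold higher and Ly6c1 was 9.71-fold lower, while Cx3cr1 had a log2 ratio of 0.10 ± 0.25 (SD, n = 2). In the colon pool alone the reporter replaces a copy of Cx3cr1, and its part in that ratio was not tested. Itgam, which encodes CD11b, had a log2 ratio of -0.46 ± 0.33, with 0.13 and -0.35 by its other probes, and was not called. Markers of other cells were also higher in the colon pool: 8 of 8 for fibroblasts, 8 of 10 for epithelium, 8 of 9 measured for B and plasma cells and 7 of 9 measured for T cells. Of 13 measured neutrophil markers 5 were lower. In pooled RNA, fewer cells of a type and less RNA per cell cannot be told apart. The part of these other cells in the results for the receptors was not tested, except where a marker list is given beside a gene.

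Siglec1, the sialoadhesin of tissue macrophages, was higher in the colon pool by its brighter probe. Normalized log2 intensities of that probe were 9.47 and 9.54 in the colon pool and 8.01 and 8.13 in the blood pool, on the first and the second array. The pools did not overlap, and the log2 ratio was 1.46 on the first array and 1.41 on the second, a mean of 1.43 ± 0.04 (SD, n = 2). Here and below, overlap was read from 2 arrays, and the share of all measured genes without overlap was not counted. The other probe, listed for the same transcript, read 6.53 and 6.84 in the colon pool and 6.60 and 6.74 in the blood pool. There the pools overlapped, with a log2 ratio of 0.01 ± 0.11. Its scanner signals lay between 71 and 109, where the negative control spots reached 57.7 to 60.1 on the first array and 55.3 to 76.2 on the second. With the mean over both probes the ratio of Siglec1 was 0.72, and the gene was no longer called.

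Cd33, which gave its name to the CD33-related Siglecs, had the highest ratio of the 6 Siglec genes by the probes used. Its single probe read 11.12 and 11.01 in the colon pool and 9.28 and 9.27 in the blood pool. The arrays gave log2 ratios of 1.84 and 1.73, a mean of 1.79 ± 0.08 (SD, n = 2). It lay at the 92.1 percentile of all measured genes, and passed under 10 of the 11 alternatives that keep the 2-fold rule, all but median centring. Several of the 11 could not undo the call: Aquantile scaling, the mean over its single probe, both filters on dim probes and either array alone. The value table repeats the software's ratios.

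Siglece, Siglecf and Siglecg, which share a stretch of chromosome 7 with Cd33, were not called. All probes of these 4 genes lie between bases 50611746 and 50906728 of mm9 chromosome 7. Siglece, an ITIM-bearing receptor of neutrophils, monocytes and macrophages, read 9.69 and 9.48 in the colon pool and 9.66 and 9.57 in the blood pool. The pools overlapped, and the log2 ratio was -0.03 ± 0.09 (SD, n = 2), turning from -0.63 to 0.03 over the alternatives. Its level in the colon cells was thus not separable from that in monocytes at the precision of these arrays.

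Siglecf, known from eosinophils and alveolar macrophages, read 8.88 and 8.83 in the colon pool and 8.01 and 8.39 in the blood pool. The pools did not overlap, but the ratios of 0.86 and 0.44 (mean 0.65 ± 0.30, SD, n = 2) stayed below 2-fold on both arrays. The other Siglecf probe read between 6.42 and 6.45 in all 4 channels, and its scanner signals were 66.3 to 90.6. Of 9 eosinophil markers, 7 were measured, none was called higher and Ear1 and Ear2 were lower in the colon pool. The other 5 measured markers were not called, with log2 ratios from 0.02 to 0.91 (Prg2), and the list median was 0.17. The peroxidase Epx and Prg3 were not well above background in either pool. The summed eosinophil marker level was 2919 to 3165 in the colon pool and 20578 to 20715 in the blood pool, on the linear intensity scale, and Ear1 and Ear2 made up 69.7% to 71.6% of it in the colon pool and 96.5% to 96.7% in the blood pool.

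Siglecg, a receptor of B cells that limits their antigen receptor signalling, was dim. It read 7.54 and 7.42 in the colon pool and 7.17 and 7.35 in the blood pool, and the log2 ratio was 0.22 ± 0.21 (SD, n = 2), with -0.11 from the scanner software. The second Siglecg probe had a log2 ratio of -0.04 ± 0.17. Of 11 B and plasma cell markers 9 were measured and 8 were higher in the colon pool. The immunoglobulin joining chain Jchain was 36.3-fold higher, while Pax5 and Blk were not well above background in either pool. Their summed level was 35336 to 36244 in the colon pool and 2608 to 2612 in the blood pool, and Jchain made up 82% to 82.6% of the sum in the colon pool. Their part in the Siglecg signal was not tested.

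The probes for Siglech gave different answers. The repeat-bearing one, which was used because it was brighter, read 14.09 and 14.05 in the colon pool and 13.45 and 13.44 in the blood pool, a log2 ratio of 0.63 ± 0.02 (SD, n = 2), below 2-fold. The other read 10.14 and 9.94 in the colon pool and 6.46 and 5.93 in the blood pool, a log2 ratio of 3.85 ± 0.23, or 14.4-fold. In the blood pool its scanner signals were 60.1 and 70 on the 2 arrays, where 95% of the negative controls lay under 51 and 53.2 and the brightest negative control reached 57.7 and 76.2. By this probe the blood pool lay close to background, while by the repeat-bearing probe both pools were bright. Among the other genes' probes with the repeat, log2 ratios were 1.94 ± 0.03 for Rgs7bp and 0.73 ± 0.20 for Ulk3, while the Chat probe was not well above background in either pool. Under median centring the ratio of the repeat-bearing Siglech probe turned to -0.16.

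Markers of plasmacytoid dendritic cells stood beside Siglech as follows. All 13 were measured, 5 were called higher in the colon pool and none lower, with a median log2 ratio of 0.89. Ly6d was 5.79-fold and Cox6a2 3.74-fold higher, and Klk1 at least 3.32-fold higher, since it was not well above background in blood. Lair1, also called higher, gave 0.35 by its other probe. It lost its call with the mean over probes, at 0.91, and under median centring, at 0.80. Tcf4, the transcription factor that defines the lineage, had a log2 ratio of 0.96 ± 0.11, but 0.16 by its other probe. Bst2 had 0.89 ± 0.19, neither was called, and Tlr7 was the lowest at -0.73 ± 0.06. Their summed level was 25335 to 25405 in the colon pool and 17690 to 17862 in the blood pool, and its part in the Siglech signal was not tested.

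**Figure D2:**
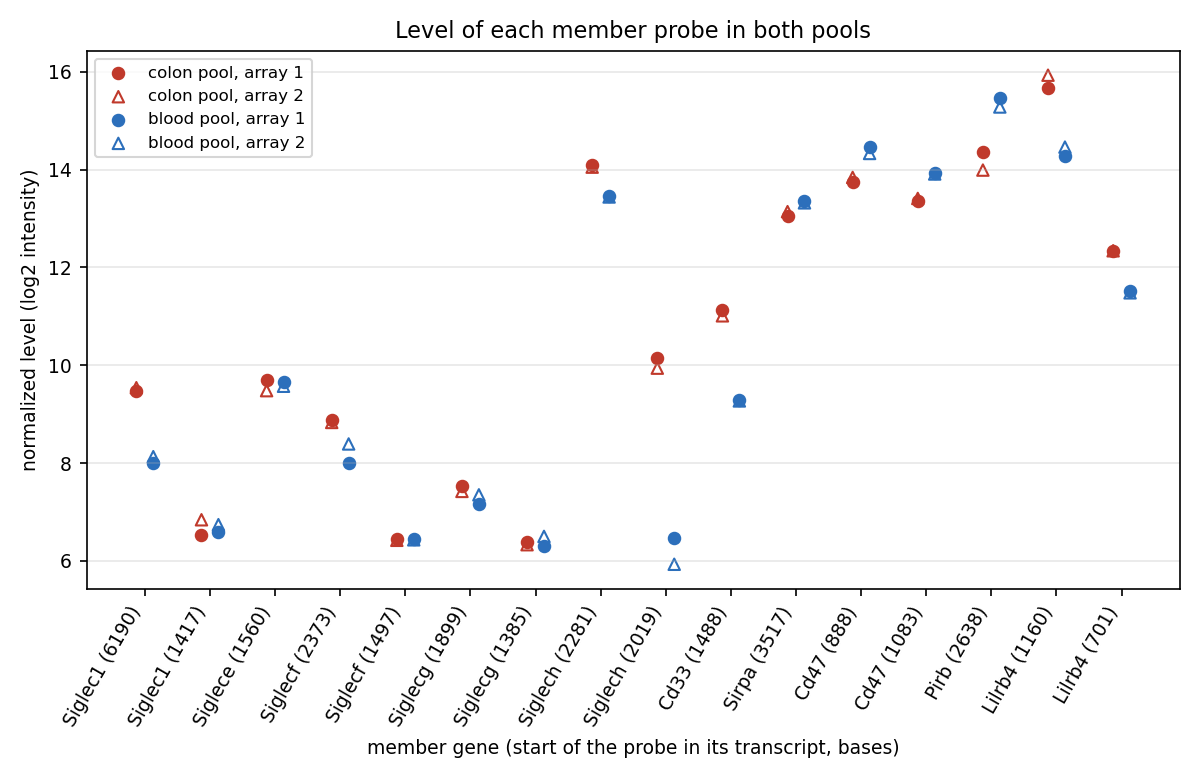
Normalized log2 intensity of each of the 16 probes in the colon pool (red) and the blood pool (blue), on the first array (filled circles) and the second array (open triangles); the number after a gene is the start of the probe in its transcript. The second probes of Siglec1, Siglecf and Siglecg read alike in both pools near the floor of the scale, and the second Siglech probe separates the pools by a log2 ratio of 3.85.

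Sirpa, the receptor that restrains phagocytosis on binding CD47, differed little between the pools after loess, at 1.18-fold lower in colon. It read 13.06 and 13.14 in the colon pool and 13.36 and 13.32 in the blood pool, with a log2 ratio of -0.24 ± 0.08 (SD, n = 2). Its ligand Cd47 read 13.74 and 13.84 in the colon pool and 14.47 and 14.33 in the blood pool. The Cd47 log2 ratio was -0.61 ± 0.17, and the second Cd47 probe, which spans an intron, gave -0.54 ± 0.06. Neither gene passed 2-fold, though all their probes were lower in the colon pool on each array. Under median centring the mean log2 ratio was -1.01 for Sirpa and -1.40 for Cd47. The arrays disagreed there, and neither gene was called. An activating relative of SIRP-alpha did pass the rule. Sirpb1a, whose product has no ITIM and signals through the adaptor encoded by Tyrobp, was 9.94-fold lower in the colon pool, a log2 ratio of -3.31 ± 0.17, and its other probes gave -3.16 and -3.09. Sirpb1a has close copies in the genome, which these probes may not separate.

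Pirb and Lilrb4 moved in opposite directions. The Pirb probe read 14.36 and 13.99 in the colon pool and 15.46 and 15.28 in the blood pool, and the pools did not overlap. Its log2 ratios were -1.10 and -1.29, a mean of -1.20 ± 0.14 (SD, n = 2), near the lower end of all measured genes at the 3.67 percentile. The used Lilrb4 probe read 15.67 and 15.93 in the colon pool and 14.28 and 14.46 in the blood pool. It was higher in the colon pool on both arrays, with log2 ratios of 1.40 and 1.46 and a mean of 1.43 ± 0.05. The second Lilrb4 probe gave 0.84 ± 0.03, in the same direction but below 2-fold.

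The activating PIR-A receptors, which share most of their ligand-binding part with PIR-B and signal through Fcer1g, were lower in the colon pool as well. All 9 probes for 5 PIR-A genes had log2 ratios between -2.36 and -1.32. Pira2 was 5.12-fold lower and Pira7 4.02-fold lower, and Lilra6, named Pira3 on the array, was 3.67-fold lower. The array lists transcripts of several Pira genes under single probes, so the members of this family are uncertain one by one. Lilra5, another activating receptor from the same end of chromosome 7, was 3.09-fold higher in the colon pool at a log2 ratio of 1.63 ± 0.02. Lilr4b, which encodes gp49A beside Lilrb4 on chromosome 10, was 2.38-fold higher at 1.25 ± 0.07, but lost its call under median centring, at 0.51. The transcripts of Lilrb4 and Lilr4b are both listed under each other's probes and cannot be separated here. In all, 2 of the 8 measured relatives were called higher and 6 lower, with a median log2 ratio of -1.77 (1 higher, 6 lower and -2.51 under median centring).

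**Figure D3:**
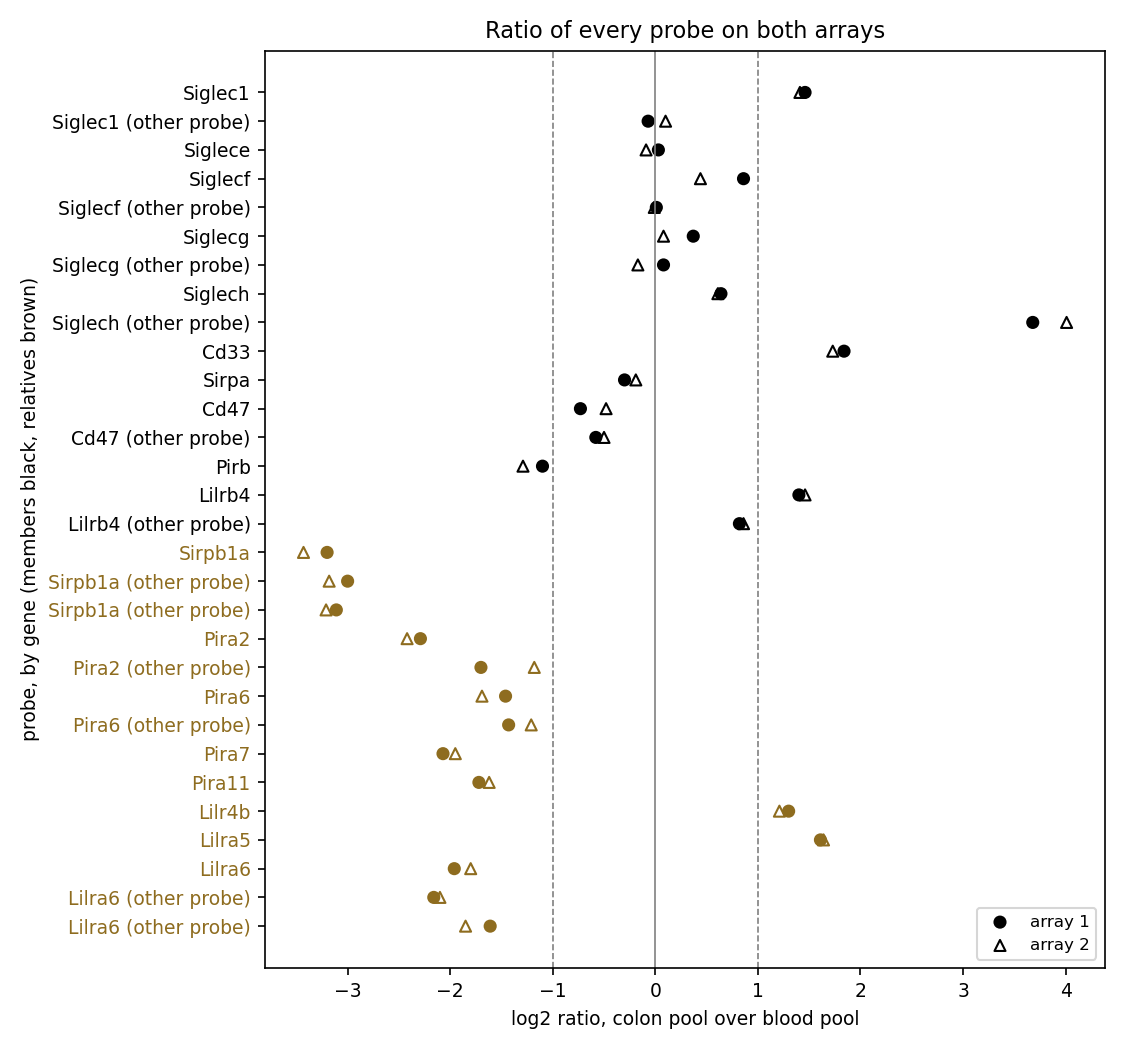
Colon over blood log2 ratio for every measured probe of the 10 receptor genes (black) and of their SIRP-beta, PIR-A and gp49A relatives (brown), on the first array (filled circles) and the second array (open triangles), with dashed lines at 2-fold. Probes for Sirpb1a and the PIR-A genes all lie below the lower line, Lilrb4 and its neighbour Lilr4b are higher in the colon pool, and the Siglech probes lie at 0.63 and 3.85.

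The genes that act with these receptors were read from lists of textbook members. For this list and those below, the shares over all measured genes were 14.2% called higher and 4.46% lower. Among the effectors of ITIM receptors 20 of 21 genes were measured. In the colon pool 2 were higher and 5 were lower, at a median log2 ratio of -0.36 (0.06 for all genes). Ptpn6, the main ITIM phosphatase of myeloid cells, was 4.47-fold lower at a log2 ratio of -2.16 ± 0.01 (SD, n = 2). The Src family kinase Fgr was 6.79-fold lower, the adaptor Dok3 3.06-fold lower, and Csk, the kinase that switches Src kinases off, 2.61-fold lower. Socs3, an inhibitor of cytokine signalling, was 5.33-fold higher and the adaptor Dok2 2.56-fold higher. The calls of Socs3 and Dok2 were lost under median centring, at mean log2 ratios of 1.60 and 0.63, and the list's median was -1.06 there.

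Of 9 ITAM partners and kinases, all measured, 1 was higher and 1 was lower in colon, at a median log2 ratio of -0.36. The higher gene was the T cell kinase Zap70, 6.35-fold, which stood with 7 of 9 measured T cell markers called higher: their summed level was 5853 to 6914 in the colon pool and 1546 to 1934 in the blood pool. Zap70 is itself on that marker list. The lower gene was the phospholipase Plcg2, 3.19-fold. The count of lower genes was 2 with the smaller background offset, under median centring, with the software's ratios and from the first array alone, and the median was -1.08 under median centring. Tyrobp, the partner of Siglec-H and SIRP-beta, had a log2 ratio of -0.73 ± 0.35, and Fcer1g, the partner of PIR-A, 0.14 ± 0.14; neither was called.

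Genes that make, attach or remove the sugar that Siglecs bind were called in part, where 18.6% of all measured genes were called either way. Of 6 genes for making and activating sialic acid, all measured, only Cmah passed the rule, 2.28-fold higher in the colon pool. Its enzyme converts the acetyl to the glycolyl form of sialic acid, which changes how well some Siglecs bind. Cmah lost its call under median centring, at 1.02. Of 20 sialyltransferases 15 were measured, 3 were higher, 2 lower and 10 neither, with a median log2 ratio of 0.22 (0.02 under median centring). St6gal1, which makes the alpha2,6-linked cap of N-glycans, was 5.78-fold higher by the brighter probe, with a log2 ratio of 2.53 ± 0.26, but its other probe gave 0.22. St3gal6 was 4.73-fold higher, and St6galnac2 at least 3.19-fold higher, since it was not well above background in blood. St3gal5, the ganglioside enzyme, was 2.64-fold lower and St3gal4 2.51-fold lower. Among the genes that remove or break down sialic acid 4 of 6 were measured, and Npl, the sialic acid lyase, was 20.6-fold higher at a log2 ratio of 4.36 ± 0.01. The lysosomal sialidase Neu1 had 0.94 ± 0.06 and was not called.

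Of 17 ligands and ligand partners of CD47, SIRP-alpha, PIR-B and LILRB4, 14 were measured, 3 were higher and 1 lower in the colon pool. Over all measured genes 14.2% were called higher and 4.46% lower. The median log2 ratio of the list was 0.76. The second array alone gave 5 higher, the software's ratios 5 higher and 2 lower, and median centring a median of 0.07. Apoe, a reported ligand of human LILRB4, was 12.5-fold higher, and Itgav, a chain of the integrin that binds gp49B, 2.87-fold higher, though Itgav lost its call under median centring at 1.0. Itgb3, the other chain of that integrin, had a log2 ratio of -0.81 ± 0.13, with -0.01 by its other probe, and was not called. The thrombospondin Thbs2 was at least 3.13-fold higher, where 8 of 8 fibroblast markers were also higher, with summed levels of 116414 to 124624 in the colon pool and 1601 to 1705 in the blood pool. Their part in the Thbs2 result was not tested. Fibronectin, Fn1, was 7.67-fold lower. B2m, the shared chain of the MHC class I ligands of PIR-B, had a log2 ratio of 0.35 ± 0.22 and Calr had 0.95 ± 0.30. Neither was called.

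Among 22 other inhibitory receptors, not all of the immunoglobulin type (Cd72 and Cd5 are not), 20 were measured, 8 were higher and 3 lower, with a median log2 ratio of 0.88. Median centring left 2 higher, Cd72 and Lag3, and 1 lower, Btla, with a median of 0.42. Cd72 was 22.2-fold higher, a log2 ratio of 4.47 ± 0.12, and its second probe gave 4.75. Lag3 was 6.12-fold, Havcr2, which encodes TIM-3, 3.43-fold and the lymphocyte receptor Cd5 3.24-fold higher; under median centring Havcr2 and Cd5 were at 1.17 and 1.49, not called. Btla was 3.58-fold, Cd300lf 2.57-fold and Vsir, which encodes VISTA, 2.27-fold lower. Under median centring Cd300lf was at -2.07 and Vsir at -1.93, not called, and Vsir was at -0.74 with the mean over its probes. Cd5 is on the T cell marker list and Cd22, also called higher but not under median centring (1.23), on that of B cells. Cd72 and Lag3 are on neither list, and the part of B and T cells in their ratios was not tested.

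**Figure D4:**
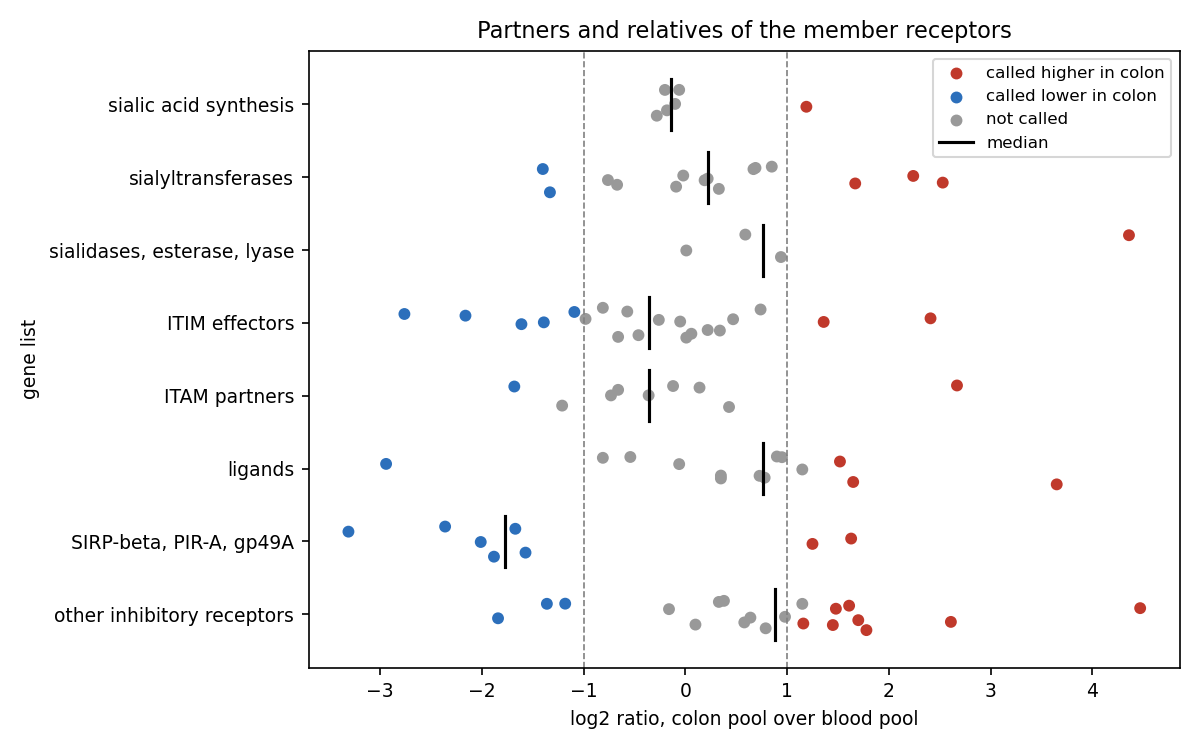
Mean colon over blood log2 ratio for each measured gene of 8 lists of partners and relatives, coloured by the size rule (red higher, blue lower, grey not called), with the list median as a black bar and dashed lines at 2-fold; vertical scatter within a list has no meaning. The SIRP-beta, PIR-A and gp49A list has the lowest median, -1.77, and the list of other inhibitory receptors the highest, 0.88.

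**Figure D5:**
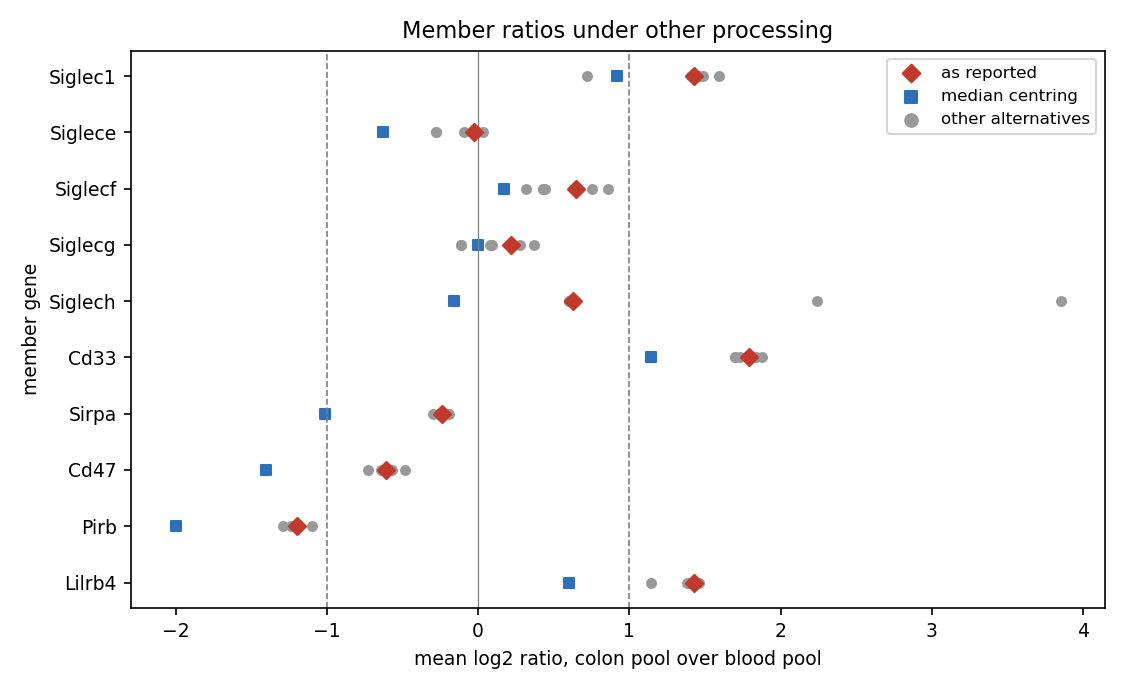
Mean log2 ratio of each receptor gene as reported (red diamond), under median centring (blue square) and under the other alternatives tried (grey circles), with dashed lines at 2-fold. Siglech runs from -0.16 to 3.85 with the choice of probe and scaling, Siglec1 is at 0.72 with the mean over probes, and the ratio of Pirb is at or below -1.10 throughout.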

How the data were processed

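Scanner intensities of both channels were deposited for each array. Per the file headers they came from Agilent Feature Extraction 10.7.3.1 (10.5.1.1 per the submitters' processing notes) on array design 026655, with mm9 probe positions. Per the labels, 25 ng of total RNA was amplified from oligo-dT and labelled. The deposited series value table equals the scanner software's log10 ratios, with the sign of the second array turned, to the precision of its digits.

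Mean and background median signals were corrected by normexp (offset 50) and normalized by loess within arrays in limma 3.58.1 (R 4.3.3), with control and outlier spots at weight 0, and ratios turned to colon over blood. The normalized log2 intensities given per pool, and the summed levels, were in addition scaled between the arrays by Aquantile. Overlap of the pools was read on these scaled intensities. The brightest probe gave a gene's value. A difference was called from size alone: at least 2-fold one way on each array, and above background in the brighter pool. Where the dim pool was not above background the fold is a lower bound, against the higher of the dimmest signal above background and the probe's own. The procedure was checked on simulated arrays in which a small share of spots, all bright, changed, as many up as down. Changes of dim probes and an excess of higher genes, as in these data, were not simulated. In each channel 52.9% to 59.6% of spots were well above background and none was saturated.

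The receptor genes, the gene and marker lists and the rule for naming genes (every receptor gene; up to 4 genes per list and direction, the largest; the highest, lowest and defining markers) were chosen with earlier results of these data known. Rgs7bp, Chat, Ulk3, Tyrobp, Fcer1g, Neu1, B2m, Calr, Itgb3, Cd22, Itgam and Lair1 were named after their values were seen. Lists of 6 erythrocyte and 6 platelet markers were also read: 0 of 3 measured erythrocyte markers were called, and of 6 platelet markers Pf4 was higher and 4 were lower. Alternatives were no or a weaker background offset (16), median centring, the software's ratios, Aquantile scaling, the series value table, means over a gene's probes, no or a stricter filter on dim probes, either array alone, and 1.5-fold and 4-fold rules.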

Additional observations from a re-analysis of the deposited data

How the results depend on the processing

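The 3 higher and 1 lower receptor genes were counted alike with no background correction, an offset of 16, the software's ratios, the value table, Aquantile scaling (which leaves ratios as they are by construction), both filters on dim probes and each array alone. The value table repeats the software's ratios. Each array alone could not lose a call, since the rule already asks for 2-fold on both. Nor could the filters, since every receptor gene was above background in both pools. With the mean over probes the count of higher genes was again 3, with Siglech in place of Siglec1. Counts fell to 0 higher and 0 lower under median centring and under the 4-fold rule, which asks for more by construction. The 1.5-fold rule gave 4 higher, adding Siglech, and the Siglech probe without the repeat, an alternative chosen after seeing the data, also gave 4.

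The median of the 10 genes was -0.08 under median centring, 0.16 with the software's ratios and with the value table, and 0.21 with the mean over probes, against 0.42; either array alone gave 0.26 to 0.50. Over all genes, those higher numbered 1138 under median centring, 3509 at 1.5-fold and 954 at 4-fold, against 2224. Those lower numbered 2083 with the software's ratios and the value table, 1750 at 1.5-fold and 130 at 4-fold, against 699. No called gene named in the text changed its mean's sign under these alternatives. No paired analysis was possible because both arrays are labelled with the same pools and were taken as 1 replicate; whether they share RNA extracts is not stated.

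With 1 pool per group the spread between mice is unknown, and the number of arrays limits the precision. For dim probes, such as the second ones of Siglec1, Siglecf and Siglecg, signal near background limits what difference can be detected.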
